A study of Mus musculus with 8 samples.

Results

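H3K4me3 was followed at 9 genes of the NRF2 and KEAP1 antioxidant response in CUT&Tag libraries of CD45-CD31-EpCAM+ lung tumor cells: Nfe2l2, which encodes NRF2, Keap1, Bach1, Nqo1, Hmox1, Txnrd1, Txn1, Srxn1 and Prdx1. Every peak that the deposited table assigned to one of these genes was taken, which gave 15 of the 35486 peaks and 7 of the 20871 genes in the table. Txn1 and Prdx1 had no row under those names and were not analysed here. KL mice carried KrasLSL-G12D/+ and Lkb1fl/fl, and KLG4m/m mice carried the same alleles together with Gpx4m/m. Both groups received Ad-Cre through the nose and later tamoxifen, and lung tumor cells were taken 10 weeks after Ad-Cre. In the Gpx4m/m allele, Cre turned on the tamoxifen-dependent recombinase DreERT2, which then removed the part of Gpx4 between rox sites, so that the design aims the loss of Gpx4 at cells that Ad-Cre had reached. Each group had 2 libraries, KL replicates 1 and 2 and KLG4m/m replicates 3 and 4. A figure legend of the study gives as many mice per group as there are libraries, whereas the protocol gives a total number of mice below the number of libraries, so it was not settled that every library is a separate mouse and the spread within a group may be partly technical.

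NRF2 is a transcription factor that pairs with small MAF proteins on antioxidant response elements and turns on genes for glutathione, thioredoxin, quinone and heme metabolism. KEAP1 holds NRF2 in the cytoplasm and, as the adaptor of a CUL3 ubiquitin ligase, has it degraded until oxidants or electrophiles modify the cysteines of KEAP1. BACH1 occupies many of the same elements as a repressor and leaves them when heme is abundant. In lung adenocarcinoma the pathway is known for loss of KEAP1, often together with loss of LKB1. H3K4me3 is a histone mark found mainly around the start sites of active or poised genes, and CUT&Tag recovers the DNA next to it.

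The 4 libraries held 3244495 to 3463731 reads in peaks. Values are given as reads in a peak or as CPM, which is reads scaled by TMM to a common total of 1000000 reads in peaks, and nearly every peak, including all 15 followed here, was 400 bp wide, so that levels can be set side by side between genes. A peak was called changed when its adjusted p was under 0.05 in edgeR's quasi-likelihood test with Benjamini-Hochberg adjustment over all peaks. Of all peaks, 3.1% were called higher and 5.52% lower in KLG4m/m than in KL. The single listed Gpx4 peak lay over the start site, outside the deleted exons, and so did not check the labels. It held 242 and 236 reads in KL and 304 and 301 in KLG4m/m, and was called higher (log2 fold change 0.39, edgeR adjusted p = 0.00178). Only the Gpx4m/m allele carries the inserted DreERT2 cassette with a CAG promoter at this locus, and its part in the Gpx4 value was not tested. Among the marker genes, 7 of 8 epithelial genes had a peak. Their summed level was 337 to 342 CPM in KL and 268 to 282 CPM in KLG4m/m. Epcam, Cdh1 and Sftpb were called lower, while Krt18 and Krt19 had log2 fold changes above 0 (0.07 and 0.11) and overlapping groups. Of the macrophage genes, 8 of 10 had a peak, with 319 to 326 CPM in KL and 386 to 393 CPM in KLG4m/m. Spi1 and Adgre1 were called higher. Mrc1 was lower without being called (-0.33, edgeR adjusted p = 0.358), and the groups overlapped at Itgax (0.00). Of the lymphocyte genes, 5 of 6 had a peak, with 95.002 to 111 CPM in KL and 134 to 143 CPM in KLG4m/m and with Ms4a1 and Cd3d called higher. The defining markers Ptprc, Spi1 and Cd3d were thus not at 0 in cells sorted as CD45-. Of the endothelial genes all 4 and of the fibroblast genes 2 of 4 had a peak; none was called in edgeR, and 1, Cdh5, had an unadjusted p under 0.05. In bulk libraries a different share of cells with the mark and a different amount of mark per cell cannot be told apart.

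Of the 15 peaks, 1 was called lower in KLG4m/m, that over the start site of Bach1, and none was called higher, while 10 had a log2 fold change above 0 and 5 below. By an unadjusted p under 0.05, 2 of the 15 peaks passed in edgeR, a smaller share than the 8738 of all 35486 peaks. DESeq2 called none of the 15 after adjustment, where it called 33 of all peaks higher and 250 lower. With so few calls in the whole table, their absence among 15 peaks says little about these genes. The single call is 6.67% of the 15 peaks, near the 5.52% of all peaks that were called lower. CPM did not overlap between the groups at 8 of the 15 peaks, 4 higher and 4 lower in KLG4m/m. This share is near that of all peaks, of which 54.2% had no overlap. The median log2 fold change was 0.03 over the 15 peaks and 0.01 over all peaks. With the reads of all peaks of a gene summed, Nfe2l2 was called higher and no other member was called, against 5.38% of all genes called higher and 9.63% called lower.

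**Figure D1:**
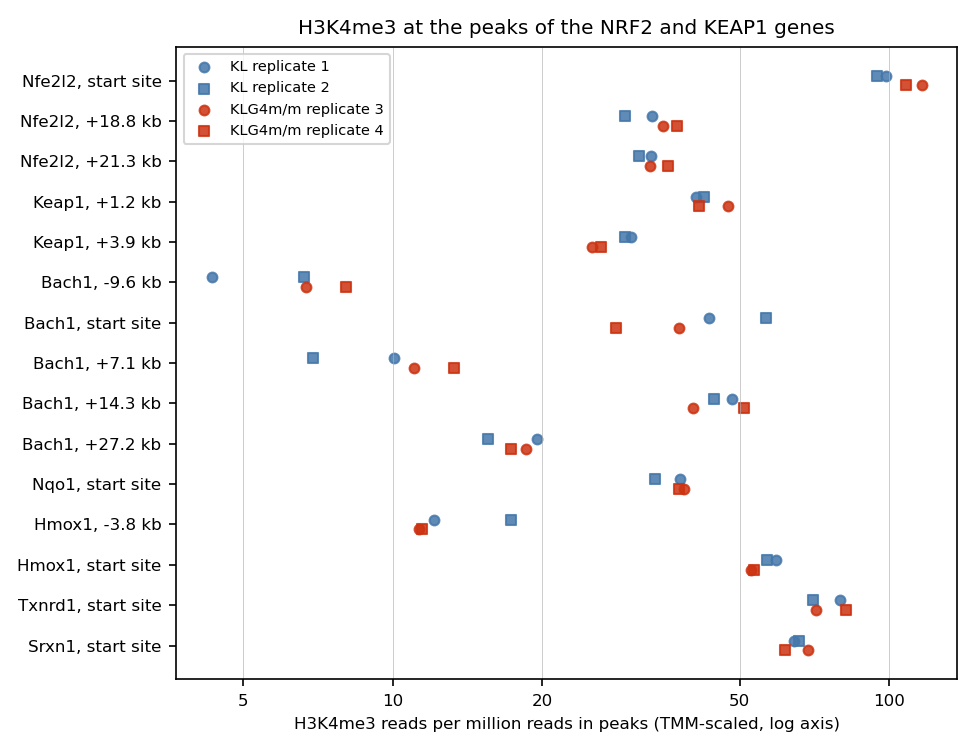
H3K4me3 level (TMM-scaled CPM, log axis) at each of the 15 peaks, by library, with KL in blue and KLG4m/m in red; peaks are named by gene and by the distance of the peak's centre from the gene's first start site. The Nfe2l2 start-site peak lies furthest right, and the Bach1 start-site peak is the one whose KLG4m/m libraries, at 28.2 and 37.7 CPM, lie clearly to the left of the KL libraries, at 43.4 and 56.5 CPM.

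The start-site peaks of these genes covered a wide part of the range seen at promoters. Among the 17073 peaks of the table within 1 kb of a start site, the Nfe2l2 peak stood at the 95.2 percentile of mean CPM, Txnrd1 at 81.0, Srxn1 at 71.9, Hmox1 at 63.1 and Nqo1 at 46.3. The peak over the first Bach1 start site stood at 50.1 and a peak next to a second Bach1 start site at 54.2. In KL the levels fell in the order Nfe2l2, Txnrd1, Srxn1, Hmox1, Bach1, the second Bach1 promoter and Nqo1, and only the Bach1 promoters overlapped between neighbours in that order. In KLG4m/m the first Bach1 promoter came last, next to Nqo1, whose lower library had 37.8 CPM against 37.7 CPM in the higher library at Bach1.

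Nfe2l2 carried the highest H3K4me3 of the 7 genes, at 3 peaks. Its start-site peak, chr2:75534683-75535083 in the positions of the table, held 343 and 329 reads in KL and 401 and 349 reads in KLG4m/m. Both KLG4m/m libraries were above both KL libraries after scaling, at 112 ± 5.82 CPM against 96.7 ± 2.76 CPM (SD, n = 2 libraries each). The log2 fold change was 0.22 (SE 0.09, edgeR adjusted p = 0.116), which was not called. In the intron, the nearer peak lay 18.8 kb from the start and had 116 and 102 reads in the KL libraries against 121 and 121 in the KLG4m/m libraries. The farther one lay 21.3 kb away and held 115 and 109 reads in KL and 114 and 116 in KLG4m/m. Their log2 fold changes were 0.21 and 0.10 (edgeR adjusted p = 0.382 and 0.722), with no overlap between groups at the nearer and overlap at the farther peak. Summed over the 3 peaks, Nfe2l2 had 574 and 540 reads in KL and 636 and 586 in KLG4m/m, that is 160 ± 7.11 and 183 ± 2.89 CPM. This sum rose by a log2 fold change of 0.19 (SE 0.07, 95% interval 0.05 to 0.32, edgeR adjusted p = 0.0472). The start-site peak held 59.8% and 60.9% of the Nfe2l2 reads in KL and 63.1% and 59.6% in KLG4m/m, so that this share overlapped between the groups. The call of the sum lay just under the threshold and was kept in 3 of 13 alternative settings. It was lost with total-read scaling (0.18, edgeR adjusted p = 0.0606), with limma at either pseudocount (0.18, adjusted p = 0.0665 and 0.0668), with quantile normalization in limma (0.11, adjusted p = 0.284), with DESeq2 (0.19, adjusted p = 0.409), without any 1 of the 4 libraries (0.15 to 0.24), and with only the peak nearest the start site (0.22, adjusted p = 0.0943). The summed levels of the macrophage and lymphocyte markers were higher in the same libraries, and their part in the Nfe2l2 value was not tested.

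The bases before the annotated start site of Nfe2l2 are shown because NRF2 is known to act on antioxidant response elements, including at its own gene. They come from RefSeq with GRCm38.p6 positions (chr2:75704664-75704913, minus strand), which are not the positions of the peak table. The promoter table held a window for 8 of the 9 genes and none for Hmox1, and the 250 bases upstream of each start were searched on both strands for 3 motifs. These were the core of the antioxidant response element, TGACNNNGC, the AP-1 type site TGAGTCA, which can be part of a larger MAF element, and the GC box GGGCGG. Of all 32851 windows, 10.2% held TGACNNNGC, 4.46% held TGAGTCA and 32.7% held GGGCGG. Capitals mark every match; in Nfe2l2 these are 1 TGACNNNGC match that starts 240 bases before the start site and 3 GC boxes on the opposite strand.
Nfe2l2: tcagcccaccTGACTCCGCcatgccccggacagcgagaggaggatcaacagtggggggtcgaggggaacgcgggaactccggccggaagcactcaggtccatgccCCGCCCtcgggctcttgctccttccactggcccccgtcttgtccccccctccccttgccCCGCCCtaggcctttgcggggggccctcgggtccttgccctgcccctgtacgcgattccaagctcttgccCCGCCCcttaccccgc

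**Figure D2:**
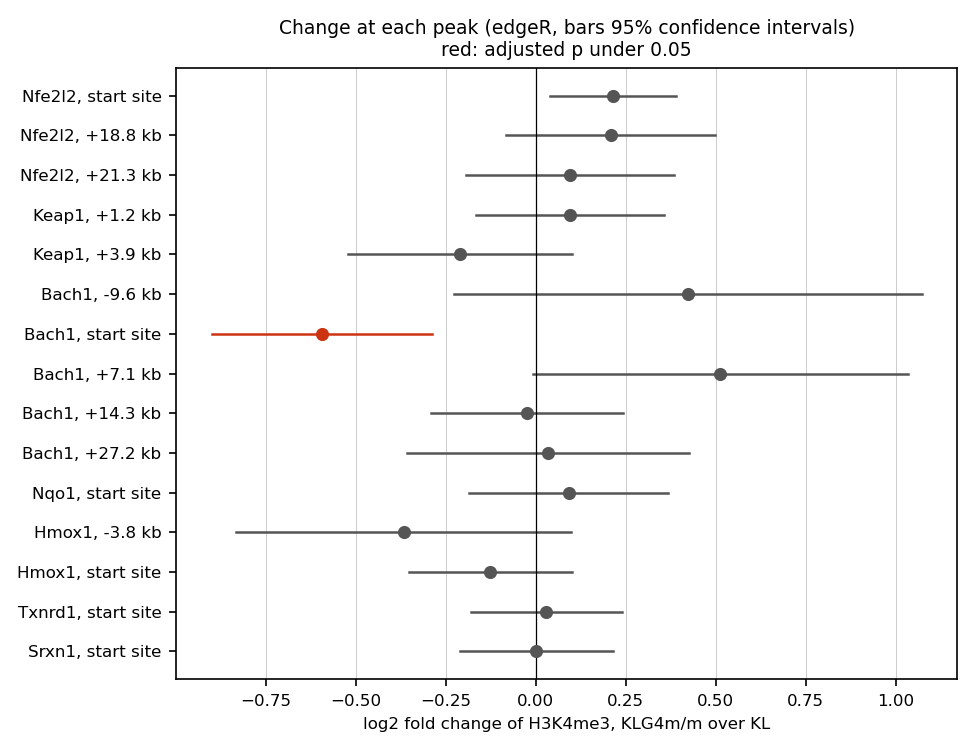
Log2 fold change of H3K4me3 (KLG4m/m over KL) at each of the 15 peaks, with points for the edgeR estimate, bars for its 95% confidence interval and red for an adjusted p under 0.05. Only the interval of the Bach1 start-site peak (-0.90 to -0.29) belongs to a called peak; the interval of the Nfe2l2 start-site peak (0.04 to 0.39) also lies above 0 without passing the adjusted threshold.

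Keap1, the inhibitor of NRF2, had 2 listed peaks and none within 1 kb of its start site. The peak centred 1.23 kb past the start held 142 and 147 reads in KL and 163 and 134 in KLG4m/m. The groups overlapped there, with KLG4m/m replicate 3 the highest and KL replicate 1 the lowest by CPM. The log2 fold change was 0.10 (95% interval -0.16 to 0.36, edgeR adjusted p = 0.686). The intronic peak at 3.87 kb held 105 and 102 reads in KL and 87 and 85 in KLG4m/m. Both KLG4m/m libraries were below both KL libraries at this peak, at 25.8 ± 0.77 CPM against 29.8 ± 0.58 CPM, and the log2 fold change of -0.21 was not called (95% interval -0.52 to 0.10, edgeR adjusted p = 0.416). The 2 Keap1 peaks thus had opposite signs, and their difference was not called in a test of peak usage, which sets a peak against its gene (edgeR diffSpliceDGE, adjusted p = 0.868 and 0.796). The summed reads were 247 and 249 in KL and 250 and 219 in KLG4m/m, a log2 fold change of -0.03 (95% interval -0.23 to 0.18, edgeR adjusted p = 0.896).

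Bach1, the repressor that competes with NRF2 for its elements, had 5 peaks, the most of the 7 genes, and 1 of them was called. The peak over the first start site, chr16:87495786-87496186 in the positions of the table (transcript NM_007520.2), held 151 and 196 reads in KL and 130 and 91 in KLG4m/m. Both KLG4m/m libraries were below both KL libraries, and the spread within KL was the largest of any start-site peak of the 7 genes. The level fell from 49.9 ± 9.20 to 32.9 ± 6.74 CPM (SD, n = 2 libraries each), a fold of 0.662 and a log2 fold change of -0.59 (SE 0.15, 95% interval -0.90 to -0.29, edgeR adjusted p = 0.0126). Of all peaks within 1 kb of a start site, 8.43% were called lower, and 7.95% had a log2 fold change below that of this peak.

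A second Bach1 promoter peak, centred 14.3 kb downstream, lay 687 bp before the start of the predicted transcript XM_006522879.4, whose start is 15.2 kb from the first. It held 168 and 154 reads in KL and 139 and 165 in KLG4m/m, the groups overlapped, and the log2 fold change was -0.02 (95% interval -0.29 to 0.24, edgeR adjusted p = 0.933). The intronic peak between these promoters, 7.07 kb downstream of the first start, held 35 and 24 reads in KL and 38 and 43 in KLG4m/m. Its groups did not overlap and KLG4m/m was the higher, in the direction opposite to the first promoter, with a log2 fold change of 0.51 that was not called (95% interval -0.01 to 1.03, edgeR adjusted p = 0.211). Without KL replicate 2 this value was 0.27, and without KL replicate 1 it was 0.81. The peak 9.56 kb upstream held only 15 and 23 reads in KL and 23 and 26 in KLG4m/m (0.42, 95% interval -0.23 to 1.07, edgeR adjusted p = 0.436), and leaving out KL replicate 1 or 2 gave 0.15 or 0.76. The last peak, in an intron 27.2 kb downstream, held 68 and 54 reads in KL and 64 and 56 in KLG4m/m (0.03, edgeR adjusted p = 0.940). At such low counts the intervals are wide.

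Of the Bach1 reads, the first promoter held 34.6% in KL replicate 1 (exact binomial 95% interval 30.1 to 39.2), 43.5% in KL replicate 2 (38.8 to 48.2), 33.0% in KLG4m/m replicate 3 (28.4 to 37.9) and 23.9% in KLG4m/m replicate 4 (19.7 to 28.5). These intervals cover counting error only, and those of KL replicate 1 and KLG4m/m replicate 3 overlap almost entirely. In the test of peak usage the first promoter differed from its gene by a log2 value of -0.46 and was not called (diffSpliceDGE, adjusted p = 0.0842), where 1.29% of 22232 peaks of genes with several peaks were called. By limma diffSplice, an alternative chosen after the data were seen that sets a peak against the other peaks only, the difference was -0.69 and was called (adjusted p = 0.0148), where 3.87% of those peaks were called. The sum over the 5 peaks was 437 and 451 reads in KL and 394 and 381 in KLG4m/m, with both KLG4m/m libraries below both KL libraries, and was not called (-0.14, SE 0.08, edgeR adjusted p = 0.231).

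The lower value at the first Bach1 promoter kept its sign in all 12 alternative settings, from -0.39 to -0.83, and 7 of them kept the call. It was lost with DESeq2 (-0.60, adjusted p = 0.233) and with quantile normalization in limma (-0.55, adjusted p = 0.0862). Without KL replicate 2 the value was -0.39 (edgeR adjusted p = 0.199), without KLG4m/m replicate 3 it was -0.83 (adjusted p = 0.307) and without KLG4m/m replicate 4 it was -0.40 (adjusted p = 0.445). With either KLG4m/m library left out no peak of the whole table passed in edgeR, although 5486 and 5178 of the 35486 peaks had an unadjusted p under 0.05. The summed level of the epithelial markers was lower in the same 2 libraries, and their part in the Bach1 value was not tested.

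**Figure D3:**
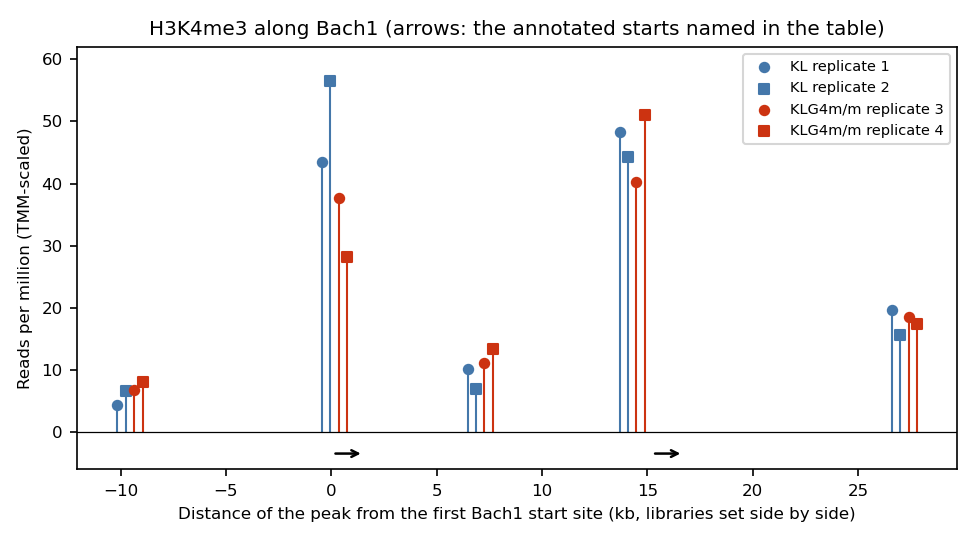
H3K4me3 at the 5 peaks of Bach1 in each library, as stems of TMM-scaled CPM against the distance of the peak's centre from the first start site in kb; the 4 stems of a peak are set side by side and arrows mark the first start and the start 15.2 kb downstream. At the first start the KL stems stand at 43.4 and 56.5 CPM and the KLG4m/m stems at 37.7 and 28.2 CPM, while at the downstream promoter the stems of both groups lie between 40.3 and 51.1 CPM.

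The window upstream of the first Bach1 start is shown because its peak was the single called one. It lies at chr16:87698704-87698953 on the plus strand of GRCm38.p6, has 69.2% G and C and 25 CpG dinucleotides, where the medians over all windows were 52.4% and 6, and holds 3 GC boxes, in capitals, within the last 73 bases before the start. The other 2 motifs searched had no match in these letters. Such a composition was not particular to Bach1: Nfe2l2 had 70.4% and 18 and Srxn1 63.2% and 21, and neither start-site peak was called. Nqo1 had 53.2% and 5 and Keap1 49.6% and 10, and the 3 Txnrd1 windows had 47.2% to 59.6% and 2 to 19.
Bach1: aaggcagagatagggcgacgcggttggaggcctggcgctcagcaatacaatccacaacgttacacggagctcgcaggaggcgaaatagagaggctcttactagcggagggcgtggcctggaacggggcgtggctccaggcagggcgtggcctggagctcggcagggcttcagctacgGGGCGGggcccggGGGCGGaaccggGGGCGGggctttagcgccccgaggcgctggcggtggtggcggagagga

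The targets that NRF2 induces and BACH1 represses held 5 peaks, of which none was called in edgeR or had an unadjusted p under 0.05. Of all peaks, 3.1% were called higher and 5.52% lower, and 8738 of 35486 had an unadjusted p under 0.05. With only 5 peaks, the absence of a call says little about these targets. Nqo1, a quinone reductase that spares cells semiquinone radicals, had 1 peak, over its start site. It held 132 and 117 reads in KL and 133 and 122 in KLG4m/m. KL replicate 2 was the lowest and the other libraries lay close together, so that the groups overlapped (0.09, 95% interval -0.19 to 0.37, edgeR adjusted p = 0.723). Hmox1 encodes heme oxygenase 1, which opens the heme ring to biliverdin, carbon monoxide and iron, and is a classic target of BACH1. Its start-site peak held 206 and 197 reads in KL and 182 and 173 in KLG4m/m, that is 58.0 ± 1.78 and 53.2 ± 0.55 CPM. The KLG4m/m libraries were below the KL libraries, and the log2 fold change of -0.13 was not called (95% interval -0.35 to 0.10, edgeR adjusted p = 0.512). The other Hmox1 peak, 3.85 kb upstream, held 42 and 60 reads in KL and 39 and 37 in KLG4m/m. KL replicate 2 stood highest there, and the log2 fold change of -0.37 was not called (95% interval -0.83 to 0.10, edgeR adjusted p = 0.330). Without KL replicate 2 it was -0.09, and without KL replicate 1 it was -0.60. Summed, Hmox1 had 248 and 257 reads in KL and 221 and 210 in KLG4m/m (-0.17, 95% interval -0.38 to 0.03, edgeR adjusted p = 0.262).

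Txnrd1, the selenoenzyme that keeps cytosolic thioredoxin reduced, had 1 peak, over its start site. The KL libraries held 277 and 244 reads there and the KLG4m/m libraries 246 and 265. The groups overlapped, with KLG4m/m replicate 4 the highest by CPM and KL replicate 2 the lowest, and the log2 fold change was 0.03 (95% interval -0.18 to 0.24, edgeR adjusted p = 0.896). Srxn1, sulfiredoxin, which restores overoxidised peroxiredoxins, also had 1 peak over its start site. It held 224 and 229 reads in KL and 237 and 199 in KLG4m/m, so that both KL libraries lay between the KLG4m/m libraries. Its mean was 65.2 ± 1.08 CPM in KL and 65.2 ± 5.03 CPM in KLG4m/m, with a log2 fold change of 0.00 (95% interval -0.21 to 0.21, edgeR adjusted p = 0.996). For these 4 targets the 95% intervals at the start-site peaks all lay between -0.35 and 0.37 on the log2 scale.

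Windows of Txnrd1 and Srxn1 are shown as those of the targets with listed peaks that matched TGACNNNGC or TGAGTCA. Txnrd1 has 3 windows in the promoter table, and the one given is chr10:82858956-82859205 on the plus strand of GRCm38.p6. It holds 1 TGACNNNGC match on the opposite strand, 92 bases before the start, and 1 GC box. The other Txnrd1 windows matched none of the motifs. Which window belongs to the start under the Txnrd1 peak was not determined. That of Srxn1, chr2:152105274-152105523 on the plus strand of GRCm38.p6, holds 2 TGAGTCA matches, 102 and 45 bases before the start, and 1 GC box on the opposite strand. The windows of Nqo1 and Keap1 matched the GC box only. Over the 10 windows of the 8 genes with one, Txn1 and Prdx1 included, TGACNNNGC matched in 3, TGAGTCA in 2 and GGGCGG in 8, and in Prdx1 a TGACNNNGC match overlapped a TGAGTCA match. A match describes the letters of the window and does not show that a factor was bound.
Txnrd1: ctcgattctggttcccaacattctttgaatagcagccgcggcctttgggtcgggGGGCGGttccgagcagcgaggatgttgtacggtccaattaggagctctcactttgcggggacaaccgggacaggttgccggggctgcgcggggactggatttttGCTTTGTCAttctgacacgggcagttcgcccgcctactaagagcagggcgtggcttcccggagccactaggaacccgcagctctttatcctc
Srxn1: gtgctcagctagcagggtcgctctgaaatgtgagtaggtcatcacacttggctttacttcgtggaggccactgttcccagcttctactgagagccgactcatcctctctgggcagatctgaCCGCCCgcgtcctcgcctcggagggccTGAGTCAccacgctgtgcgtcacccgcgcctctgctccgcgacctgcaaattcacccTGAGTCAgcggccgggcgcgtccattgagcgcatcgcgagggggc

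Of 68 other genes of the pathway, 65 had a peak, and with reads summed per gene 3 were called higher and 4 lower. These are 4.62% and 6.15% of the 65, where 5.38% and 9.63% of all genes were called higher and lower, and the median log2 fold change was 0.05 against 0.00 over all genes. Among regulators of NRF2, 17 of 18 had a peak and 1 was called. This was Sqstm1, which encodes p62, an autophagy receptor that binds KEAP1. It had 324 and 316 reads in KL and 395 and 371 in KLG4m/m, and rose by 0.31 on the log2 scale (SE 0.09, edgeR adjusted p = 0.00574).

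Among the other targets, 27 of 28 had a peak, 2 were called higher and 2 lower. Fth1, the ferritin heavy chain that stores iron, had 292 and 264 reads in KL and 348 and 326 in KLG4m/m, and rose by 0.33 (edgeR adjusted p = 0.00627). Osgin1, a gene induced by oxidative stress, had 273 and 264 reads in KL and 307 and 316 in KLG4m/m, and rose by 0.27 (edgeR adjusted p = 0.0376). In both, all KLG4m/m libraries were above all KL libraries. Gclc, the catalytic subunit of the rate-limiting enzyme of glutathione synthesis, had 403 and 483 reads in KL and 320 and 304 in KLG4m/m over 6 peaks, and its log2 fold change was -0.45 (SE 0.09, edgeR adjusted p = 3.32e-05). Abcc1, a transporter that exports glutathione conjugates, had 216 and 218 reads in KL and 176 and 126 in KLG4m/m, with a log2 fold change of -0.47 (SE 0.12, edgeR adjusted p = 0.00283). The KL and KLG4m/m libraries did not overlap at either gene, and the KLG4m/m replicates of Abcc1 lay far apart. A lack of overlap adds little to these calls, because 54.2% of all peaks had none either. The share over all genes was not counted.

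In the thioredoxin and peroxiredoxin family with related enzymes, 21 of 22 genes had a peak, and 2 were called, both lower. Glrx2, a mitochondrial glutaredoxin, had 243 and 241 reads in KL and 207 and 169 in KLG4m/m (-0.31, edgeR adjusted p = 0.0389). Glrx5, a mitochondrial glutaredoxin of iron-sulfur cluster assembly, had 345 and 348 reads in KL and 287 and 267 in KLG4m/m (-0.27, edgeR adjusted p = 0.0312). The split of the 65 genes depended on the scaling: with each library centred on its median in limma, 14 were called higher and 2 lower. That setting moved the median log2 fold change of all genes to 0.09 and called 13.6% of all genes higher and 6.69% lower. With only the peak nearest the start site, Sqstm1 was 0.25 (edgeR adjusted p = 0.0819), Osgin1 0.25 (adjusted p = 0.173) and Glrx2 -0.31 (adjusted p = 0.0557). These lost the call there, while Fth1, Gclc, Abcc1 and Glrx5 kept it. Osgin1 also lost it with limma at either pseudocount (0.26, adjusted p = 0.0511 and 0.0531). DESeq2 kept only Gclc of the 7 calls, where it called 0.585% of all genes higher and 1.61% lower, and without either KLG4m/m library none of all genes was called in edgeR. Without KL replicate 2 only Abcc1 kept its call and Gclc was -0.31 (edgeR adjusted p = 0.0646), and without KLG4m/m replicate 4 Abcc1 was -0.29 (edgeR adjusted p = 0.259).

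**Figure D4:**
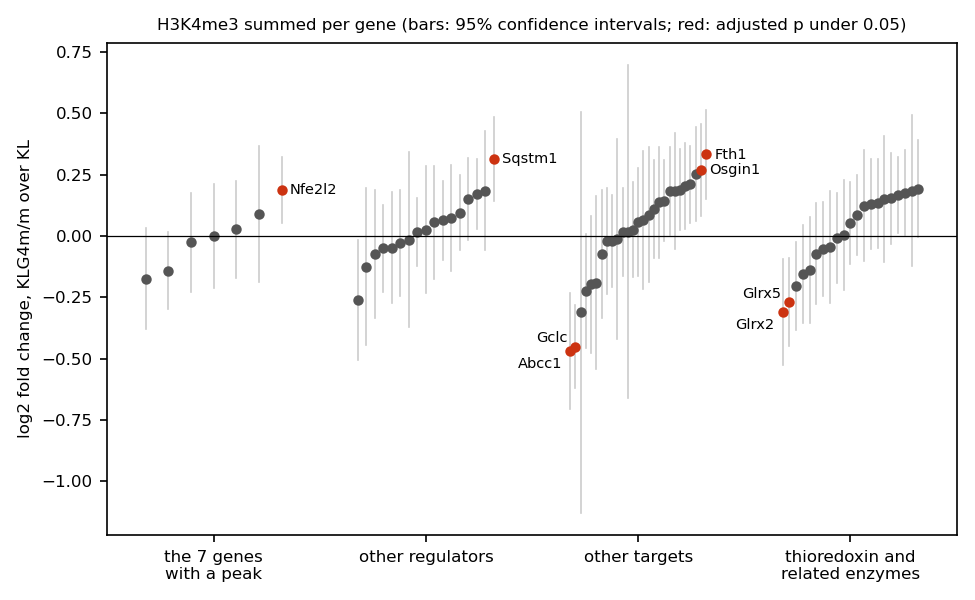
Log2 fold change of H3K4me3 summed per gene (KLG4m/m over KL, edgeR), with a point for each gene, a bar for its 95% confidence interval and red for an adjusted p under 0.05; genes are in order of the value within the 7 genes with a peak, 17 other regulators, 27 other targets and 21 thioredoxin and related genes. Nfe2l2, Sqstm1, Fth1 and Osgin1 are the called genes above 0, and Gclc, Abcc1, Glrx2 and Glrx5 those below.

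Peaks assigned to other genes within 50 kb of a member peak were counted to see what lay around the members. Over all peaks, 3.1% were called higher and 5.52% lower in KLG4m/m. Counts as small as those around a member cannot be told apart from these shares. None of the 6 around Nfe2l2, 8 around Keap1, 1 around Bach1, 4 around Hmox1 and 1 around Srxn1 was called in edgeR, although 1 around Keap1 and the 1 around Srxn1 had an unadjusted p under 0.05. Around Nqo1, 1 of 3 was called, the promoter of Wwp2, which encodes a ubiquitin ligase, 33.0 kb away, where the KL libraries held 154 and 182 reads and the KLG4m/m libraries 227 and 202 (0.41, edgeR adjusted p = 0.0244). Around Txnrd1, 1 of 5 was called, an intergenic peak 40.7 kb from the Txnrd1 promoter peak that the table names after Eid3. It held 124 and 112 reads in KL and 53 and 53 in KLG4m/m, with a log2 fold change of -1.10 (SE 0.17, edgeR adjusted p = 1.28e-04), a larger change than at any peak of the 7 genes. At the Txnrd1 promoter itself the groups overlapped. Of the 5 peaks around Txnrd1, 2 others named after Eid3 lay inside the Txnrd1 gene, neither of them called. One, annotated as within 1 kb of an Eid3 start site, held 24 and 23 reads in KL and 47 and 32 in KLG4m/m (0.80, edgeR adjusted p = 0.0587). The other held 25 and 25 in KL and 31 and 29 in KLG4m/m (0.32, edgeR adjusted p = 0.498). They were looked up after the values were known, and reads near an overlapping gene cannot be given to one of the genes by position alone.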

How the data were processed

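H3K4me3 CUT&Tag libraries of 2 KL and 2 KLG4m/m samples were used; H3K27ac was not analysed here. The authors trimmed reads with Trim Galore 0.6.10, mapped them with BWA 0.7.15, removed mitochondrial, low-quality and, with Picard 2.17.3, duplicate reads, called peaks with MACS2 2.2.7.1 and assigned them to genes with HOMER 4.11.1; the labels describe protein A/G-MNase as the enzyme. The authors deposited 1 table with whole, unscaled read counts per peak and library, which were used, and with normalized values and the authors' own comparison (log2 fold change, F, p and adjusted p), which were not. It does not say whether peaks were called per sample or on pooled reads. Values are relative to reads in peaks, which hides a uniform change of the mark over all peaks. The methods name an Ensembl annotation of GRCm38, but gene positions in the table differ from GRCm38, so positions are printed as deposited and no sequence was read by them.

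Groups came from the sample labels. Counts of every peak, and the counts summed per gene, were tested with edgeR 4.0.16 (glmQLFit, glmQLFTest, TMM, two-sided, no filter, no covariate; common dispersion 0.00133) in R 4.3.3, with Benjamini-Hochberg adjustment over all 35486 peaks or 20871 genes. A fold change is KLG4m/m over KL, and its SE was taken from the F statistic. Peak usage was tested with diffSpliceDGE. Alternatives were DESeq2 1.42.0, RLE or total-read scaling, limma 3.58.1 on log2(CPM + 1) or log2(CPM + 0.25), also median-centred or quantile-normalized, a mean of at least 10 CPM, the peak nearest the start site, limma diffSplice (added after the data were seen) and leaving out each library. Scripts were tested on simulated data. The libraries held 3244495 to 3463731 reads in peaks, and the followed peaks 15 to 401 reads each, so counting error is a large part of the weak peaks. The members, the lists of other pathway genes and the markers were chosen with earlier results of these data known, and 1 marker of the list is not reported here; the named genes were all members, and the other pathway genes past the threshold, at most 5 a list. Replicates of a group differed by more than sampling noise (chi-square per degree of freedom 1.13 in KL and 1.23 in KLG4m/m, against 2.37 to 2.80 between groups).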

Additional observations from a re-analysis of the deposited data

How the results depend on the processing

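The count of 1 called peak was 0 with DESeq2 and with quantile normalization, where 1 and 2 of the 15 peaks had an unadjusted p under 0.05, and 0 to 1 when a library was left out. The count of 1 called gene was 0 with DESeq2, total-read scaling, limma with either pseudocount and quantile normalization, where 0, 1, 1, 1 and 1 of the 7 genes had an unadjusted p under 0.05, and 0 for every library left out; with the peak nearest the start site the 1 called gene was Bach1, lower, in place of Nfe2l2. The 7 called genes among the other pathway genes were 1 with DESeq2, 16 with median centring and 4 with the peak nearest the start site, and 0 to 4 with a library left out. Peak usage called 0 peaks with diffSpliceDGE (2 of 12 at an unadjusted p under 0.05), 1 with limma diffSplice, and 0 to 1 with a library left out. Of 270 values of single peaks and genes, 224 kept direction and side of the threshold, 15 lost the call, 1 gained it and 30 changed sign without being called. With quantile normalization these were the second Bach1 promoter (0.0164) and the Txnrd1 peak (-0.00853). The Srxn1 peak was -0.00202 with DESeq2, -0.000787 with RLE, -0.00752 with total reads, -0.0115 and -0.0117 with limma at a pseudocount of 1 and 0.25, -0.0135 with quantile normalization and -0.0184 with the filter at 10 CPM. The Keap1 sum was 0.0624 with median centring and 0.0981 by the nearest peak, and the Srxn1 sum was 0.00168 with DESeq2, 0.00279 with RLE, 0.0854 with median centring, 0.0115 with quantile normalization and 0.00377 by the nearest peak. Leaving out a library gave -0.00729 to 0.187 for the Keap1 peak near the start, -0.199 to 0.137 for the second Bach1 promoter, -0.122 to 0.208 for the Bach1 peak 27.2 kb downstream, -0.0695 to 0.126 for the Txnrd1 peak and -0.0702 to 0.127 for its sum, -0.0851 to 0.0784 for the Srxn1 peak and -0.0884 to 0.0778 for its sum, and -0.0811 to 0.0240 for the Keap1 sum. The causes were not tested. A fit without 1 library assumes that the lone library of its group varies like the other group. Median centring, which moved the median of all genes furthest, put it at 0.09. No paired analysis was possible because the KL and KLG4m/m libraries share no replicate number.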
